A study of Homo sapiens with 18 samples.

Results

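The transcripts described here come from 9 genes that carry the insulin signal from its receptor to gene expression and growth, which are INSR, IRS1, IRS2, AKT1, AKT2, TSC2, MTOR, FOXO1 and FOXO3. They were taken by gene symbol, with every array probe that carries 1 of these symbols, out of 20046 genes with such a probe. The 9 genes had 15 probes, and each gene is led by its probe of highest mean over all arrays. Of the 15 probes, 14 entered the tests because 3 or more arrays read them above the array median. The exception was ILMN_1687940 of FOXO3, which had a mean of 6.48 and was above the array median on 1 array.

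RNA of 2 established human endometrial cancer lines was read on 18 Illumina bead arrays. Hec-1A derives from an adenocarcinoma, and RL95-2 from a tumour of adenosquamous type. The treatments were control IgG, PDGF-AA and the combination of PDGF-AA with 3G3 (PDGF-AA + 3G3), with 3 arrays in each of the 6 groups. PDGF-AA is a growth factor that binds PDGFR alpha, and 3G3 is an antibody against that receptor, whose blockade in uterine cancer is the subject of the series. The labels state no dose, no duration and no genotype of the lines, and nothing says that replicates were separate cultures, so p-values measure the spread between these samples, which may be technical. The labels name IgG in the control groups only. PDGF-AA + 3G3 therefore has no PDGF-AA group with IgG beside it, and the presence of an antibody and the action of 3G3 cannot be told apart. Each tumour type is represented by 1 line, so a difference between the lines cannot be told apart from a difference between tumour types.

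Values are log2 expression values on which every array had a median of 6.639 and a range from 6.222 to 14.095, so a probe near 6.6 is near the background of the array. Background was not subtracted, and fold changes of dim probes are therefore understated. Of 9 epithelial markers, 9 were above the array median on all Hec-1A arrays and 8 on all RL95-2 arrays, and EPCAM spanned 12.92 to 13.59 and 12.01 to 12.41. On all 9 arrays of a line, the array median was exceeded by 1 of 7 leukocyte markers in each line, 0 and 1 of 6 endothelial markers in Hec-1A and RL95-2, and 1 and 2 of 9 fibroblast and smooth muscle markers. Those above it were LYZ and ACTA2 in both lines, and COL1A1 and CDH5 in RL95-2. ACTA2 spanned 7.92 to 8.25 in Hec-1A and 7.81 to 8.29 in RL95-2. In RL95-2 COL1A1 spanned 7.13 to 7.37 and CDH5 7.05 to 7.38. PTPRC, the defining leukocyte marker, spanned 6.47 to 6.70 over both lines. One array was unlike the rest: Hec-1A control IgG replicate 1 had a median correlation over probes of 0.965 with the other Hec-1A arrays, and each of the remaining arrays had 0.99 or more within its line. The line differences of the leading probes under control IgG, and the differences of IRS2 and MTOR between treatments in Hec-1A, are given with and without it.

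Insulin binds INSR, a receptor tyrosine kinase, which phosphorylates the adaptors IRS1 and IRS2, and these recruit phosphoinositide 3-kinase and so activate the kinases AKT1 and AKT2. AKT inhibits TSC2, a brake on the kinase MTOR that drives protein synthesis, and excludes the transcription factors FOXO1 and FOXO3 from the nucleus. In the endometrium FOXO1 is known for its part in decidualisation of the stroma, and the pathway is often activated in endometrial cancer.

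The starts of the IRS1 and IRS2 genes are shown because these adaptors share a function and stood on opposite sides of the line comparison. IRS2 is known as a gene that FOXO factors switch on through an insulin response element in its promoter. The sequences are the 250 bases before the start, from RefSeq (GRCh38.p14), on the minus strand, written 5′ to 3′. Capitals mark the core TGTTTTG of the insulin response element, the only match found. IRS2 is chr13:109786584-109786833 and IRS1 is chr2:226799821-226800070.
IRS2: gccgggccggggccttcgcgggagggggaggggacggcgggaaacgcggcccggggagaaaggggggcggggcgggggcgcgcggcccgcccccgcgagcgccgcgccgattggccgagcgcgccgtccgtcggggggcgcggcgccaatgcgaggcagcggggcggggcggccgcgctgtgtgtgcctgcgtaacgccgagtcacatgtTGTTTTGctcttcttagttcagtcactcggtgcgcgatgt
IRS1: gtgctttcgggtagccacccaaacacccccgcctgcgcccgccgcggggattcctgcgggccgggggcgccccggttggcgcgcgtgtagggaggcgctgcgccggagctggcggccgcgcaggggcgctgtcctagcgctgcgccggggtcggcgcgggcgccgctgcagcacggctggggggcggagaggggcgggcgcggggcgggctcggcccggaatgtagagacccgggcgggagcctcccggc

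The capitals in IRS2 begin 40 bases before the start, and the same letters or their reverse complement occur in 1511 of 35116 promoter windows of this length (4.3%). They were found in 1 of the 15 annotated starts of the 9 genes. The FOXO consensus GTAAACA, searched on both strands, was in 0 of the 15 and in 2.98% of all windows. G and C made up 76.4% of the IRS2 and 80.8% of the IRS1 window. A match describes letters and is not a measured binding site.

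In each treatment the lines differed most in the adaptors and in the FOXO factors, where the members of each pair differed in opposite directions. IRS2 and FOXO1 were higher in Hec-1A, and IRS1 and FOXO3 were higher in RL95-2. Under control IgG, 9 of the 14 tested probes differed between the lines at an adjusted p below 0.05, 3 higher and 6 lower in Hec-1A. Among all 32070 tested probes 35.6% differed, 18.1% higher and 17.5% lower. Under PDGF-AA 6 of the 14 probes differed, 3 each way, against 28% of all probes (14.6% higher and 13.4% lower). Under PDGF-AA + 3G3 it was 9, with 3 higher and 6 lower, against 28.6% (14.7% higher and 13.9% lower). By leading probe, 7, 5 and 7 of the 9 genes differed under control IgG, PDGF-AA and PDGF-AA + 3G3. Of all 15360 tested genes, by their brightest probe, 22.9%, 18.8% and 19% were higher in Hec-1A in that order. Lower were 23.1%, 18.1% and 18.6%. The same 6 probes, those of IRS1, IRS2, AKT2 and FOXO1 and the brighter pair of FOXO3, differed with the same sign in all 3 treatments, and 19.8% of all tested probes did so. The tests are moderated tests of limma on the 6 group means with Benjamini-Hochberg adjustment over all tested probes. The median half-width of a 95% interval was 0.162 on the log2 scale. RNA came from many cells at once, so fewer cells with a transcript and less transcript per cell cannot be told apart.

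**Figure D1:**
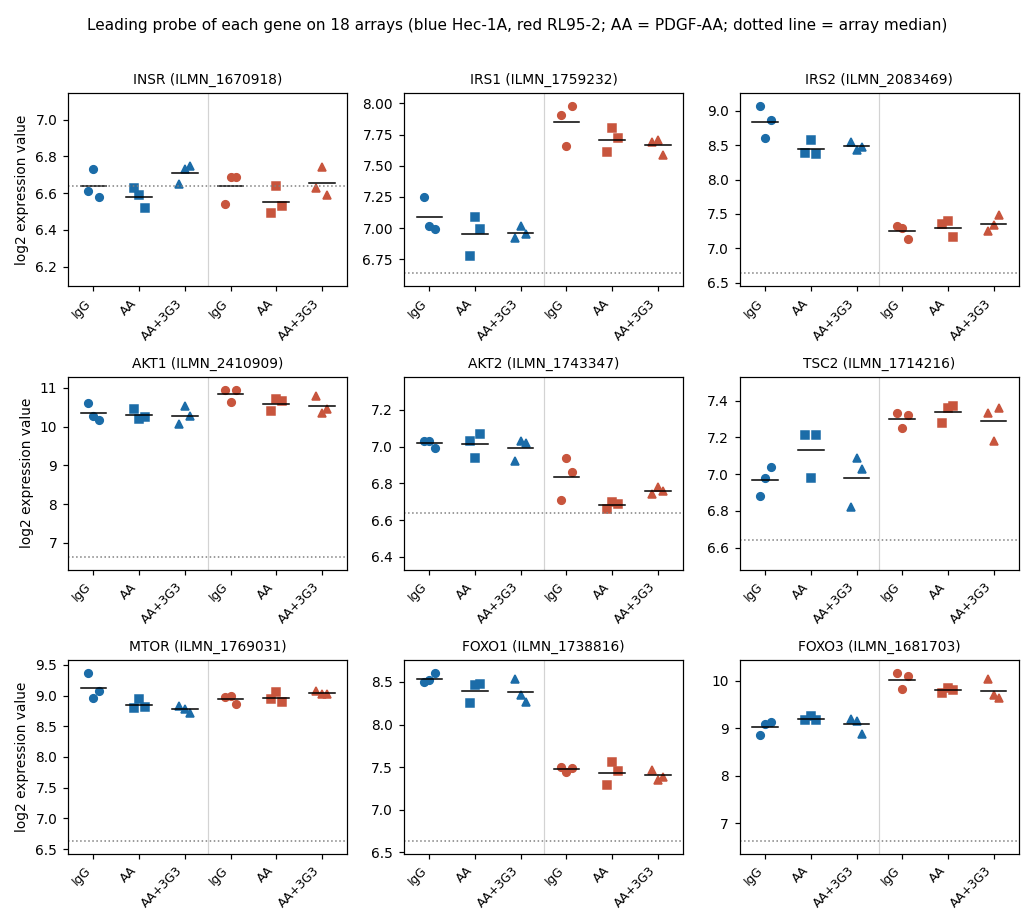
Log2 expression value of the leading probe of each of the 9 genes on the 18 arrays, by treatment, with Hec-1A in blue and RL95-2 in red. Short bars are group means, the dotted line is the array median of 6.639, and each panel has its own scale. IRS2 and FOXO1 are higher on every Hec-1A array, IRS1 and FOXO3 on every RL95-2 array, and INSR lies at the array median in both lines.

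INSR, the receptor itself (ILMN_1670918; chromosome 19, 7112265 to 7294414 in GRCh38.p14), was measured close to background. The Hec-1A arrays gave 6.61, 6.73 and 6.58 under control IgG, 6.63, 6.59 and 6.52 under PDGF-AA and 6.65, 6.73 and 6.75 under PDGF-AA + 3G3. The RL95-2 arrays gave 6.54, 6.69 and 6.69, then 6.49, 6.64 and 6.53, then 6.63, 6.74 and 6.59. Only 8 of the 18 values were above the array median, and the lines overlapped in every treatment. The line difference under control IgG was 0.00 ± 0.06 (SE, n = 3 arrays a group) with a 95% interval from -0.14 to 0.13 (limma, adjusted p = 0.99), and 0.01 without Hec-1A control IgG replicate 1. At this brightness the probe may miss a difference in the receptor transcript, which was not tested, and the interval holds for the probe's signal.

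IRS1 and IRS2 bring phosphoinositide 3-kinase to the activated receptor. IRS1 (ILMN_1759232; chromosome 2, 226731312 to 226799820) read 7.25, 7.02 and 6.99 in Hec-1A under control IgG, 6.78, 7.09 and 6.99 under PDGF-AA and 6.92, 7.02 and 6.95 under PDGF-AA + 3G3. In RL95-2 it read 7.91, 7.66 and 7.98, then 7.61, 7.80 and 7.72, then 7.69, 7.71 and 7.59. Every RL95-2 array was above every Hec-1A array, with 7.59 as the lowest and 7.25 as the highest of the respective lines. IRS1 was 1.70-fold lower in Hec-1A under control IgG, a log2 difference of -0.77 ± 0.09 (SE; limma, adjusted p = 6.2e-06), and of -0.85 without Hec-1A control IgG replicate 1 (adjusted p = 1.5e-06). The differences were -0.76 under PDGF-AA (adjusted p = 8.3e-06) and -0.70 under PDGF-AA + 3G3 (adjusted p = 2e-05).

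IRS2 (ILMN_2083469; chromosome 13, 109752695 to 109786583) had the largest line difference of the 9 genes. Hec-1A gave 9.07, 8.60 and 8.86 under control IgG, 8.38, 8.57 and 8.37 under PDGF-AA and 8.55, 8.43 and 8.48 under PDGF-AA + 3G3. RL95-2 gave 7.33, 7.29 and 7.14, then 7.35, 7.39 and 7.16, then 7.25, 7.34 and 7.48. The lines were separated by a gap from 7.48 to 8.37, and the highest values were those of the Hec-1A controls. IRS2 was 3.0-fold higher in Hec-1A under control IgG, at 1.59 ± 0.10 on the log2 scale (SE; limma, adjusted p = 2.9e-09). Without Hec-1A control IgG replicate 1 the difference was 1.47 (adjusted p = 1.7e-09). It was 1.14 under PDGF-AA (2.2-fold, adjusted p = 2.1e-07) and 1.13 under PDGF-AA + 3G3 (2.19-fold, adjusted p = 2.2e-07).

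AKT1 and AKT2 are the kinases that the lipid product of phosphoinositide 3-kinase brings to the membrane, AKT2 being the one best known for glucose uptake. AKT1 (chromosome 14, 104769349 to 104795748) had 3 probes. Its leading probe ILMN_2410909 read 10.60, 10.26 and 10.18 in Hec-1A and 10.93, 10.63 and 10.95 in RL95-2 under control IgG. Under PDGF-AA the same probe read 10.45, 10.20 and 10.24 against 10.39, 10.71 and 10.66, and under PDGF-AA + 3G3 it read 10.06, 10.53 and 10.26 against 10.78, 10.34 and 10.46. The lines were apart under control IgG and overlapped in the other treatments. The log2 difference was -0.49 ± 0.15 under control IgG (1.4-fold lower in Hec-1A; limma, adjusted p = 0.015), -0.29 under PDGF-AA (adjusted p = 0.17) and -0.24 under PDGF-AA + 3G3 (adjusted p = 0.27). The control difference was -0.61 without Hec-1A control IgG replicate 1 (adjusted p = 0.003). It missed the threshold when any 1 of 3 other arrays was left out, with an adjusted p of 0.071 without Hec-1A control IgG replicate 3 and of 0.06 and 0.065 without RL95-2 control IgG replicates 1 and 3. The scaling mattered too. With no normalization between arrays the control difference was -0.32 (limma, adjusted p = 0.28), and scaled to a common median -0.42 (adjusted p = 0.11).

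A further bright AKT1 probe, ILMN_2388507, gave 9.80, 10.01 and 9.93 in Hec-1A and 10.41, 10.36 and 10.43 in RL95-2 under control IgG. Its difference there was also -0.49, with a smaller SE of 0.09 (limma, adjusted p = 0.00026). Under PDGF-AA it was -0.13 (adjusted p = 0.35) and under PDGF-AA + 3G3 -0.28 (adjusted p = 0.022). The remaining AKT1 probe, ILMN_1748661, had a mean of 6.71, close to background, and a control difference of 0.00 ± 0.07. AKT1 was thus lower in Hec-1A by both bright probes under control IgG, by no probe under PDGF-AA, and by ILMN_2388507 alone under PDGF-AA + 3G3.

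AKT2 (ILMN_1743347; chromosome 19, 40230317 to 40285345) was dim, with all values between 6.66 and 7.07. Hec-1A gave 7.03, 7.03 and 6.99, then 7.03, 6.94 and 7.07, then 6.92, 7.03 and 7.02 in the order control IgG, PDGF-AA and PDGF-AA + 3G3. RL95-2 gave 6.71, 6.94 and 6.86, then 6.66, 6.70 and 6.69, then 6.74, 6.78 and 6.76. Within each treatment no RL95-2 array reached the lowest Hec-1A array. The log2 difference was 0.18 ± 0.06 under control IgG (1.13-fold; limma, adjusted p = 0.022), 0.33 under PDGF-AA (1.26-fold, adjusted p = 0.00026) and 0.23 under PDGF-AA + 3G3 (1.17-fold, adjusted p = 0.006). The control difference missed the threshold without Hec-1A control IgG replicate 1 (0.17, adjusted p = 0.061), without Hec-1A control IgG replicate 2 (0.17, adjusted p = 0.059) and without RL95-2 control IgG replicate 1 (0.12, adjusted p = 0.14). It also missed it with each treatment fitted alone (0.18, adjusted p = 0.12). With no normalization between arrays the differences under PDGF-AA (0.25, adjusted p = 0.098) and PDGF-AA + 3G3 (0.17, adjusted p = 0.31) missed it as well.

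TSC2 is the GTPase-activating subunit of the TSC complex, which holds RHEB and through it MTOR inactive. Its leading probe ILMN_1714216 (chromosome 16, 2047985 to 2089491) read 6.88, 6.98 and 7.04 in Hec-1A under control IgG, 7.21, 6.98 and 7.21 under PDGF-AA and 6.82, 7.09 and 7.03 under PDGF-AA + 3G3. RL95-2 read 7.33, 7.25 and 7.32, then 7.28, 7.36 and 7.37, then 7.33, 7.18 and 7.36. RL95-2 was higher on every array within each treatment. The log2 difference was -0.33 ± 0.08 under control IgG (1.26-fold lower in Hec-1A; limma, adjusted p = 0.0028), -0.20 under PDGF-AA (adjusted p = 0.065) and -0.31 under PDGF-AA + 3G3 (adjusted p = 0.0055). The second TSC2 probe, ILMN_1762631, had a mean of 6.63 and was above the array median on 7 arrays, and its control difference was 0.09 ± 0.08. With the mean of both probes the control difference was -0.12 (adjusted p = 0.082), and by the leading probe without Hec-1A control IgG replicate 1 it was -0.29 (adjusted p = 0.014). By the leading probe with no normalization between arrays it was -0.20 (adjusted p = 0.18).

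MTOR (ILMN_1769031; chromosome 1, 11106535 to 11262551), the kinase of both mTOR complexes, was bright in all groups. Hec-1A gave 9.36, 8.96 and 9.07 under control IgG, 8.80, 8.94 and 8.82 under PDGF-AA and 8.83, 8.78 and 8.72 under PDGF-AA + 3G3. RL95-2 gave 8.98, 9.0 and 8.87, then 8.94, 9.06 and 8.90, then 9.07, 9.03 and 9.03. The lines overlapped under control IgG and PDGF-AA and were apart under PDGF-AA + 3G3, where Hec-1A was lower. The log2 difference was 0.18 ± 0.08 under control IgG (limma, adjusted p = 0.11), -0.12 under PDGF-AA (adjusted p = 0.36) and -0.27 under PDGF-AA + 3G3 (adjusted p = 0.021). The control difference depended on single arrays, with 0.07 without Hec-1A control IgG replicate 1 (adjusted p = 0.55) and 0.27 without Hec-1A control IgG replicate 2 (adjusted p = 0.016), past the threshold. The PDGF-AA + 3G3 difference missed the threshold when any 1 of 3 arrays was left out, with an adjusted p of 0.052 and 0.078 without Hec-1A PDGF-AA + 3G3 replicates 2 and 3 and 0.063 without RL95-2 PDGF-AA + 3G3 replicate 1. It depended on the processing as well. With no normalization between arrays it was -0.34 (limma, adjusted p = 0.32), and scaled to a common median -0.33 (adjusted p = 0.16). With an intensity trend and robust moderation it was -0.27 (adjusted p = 0.065).

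**Figure D2:**
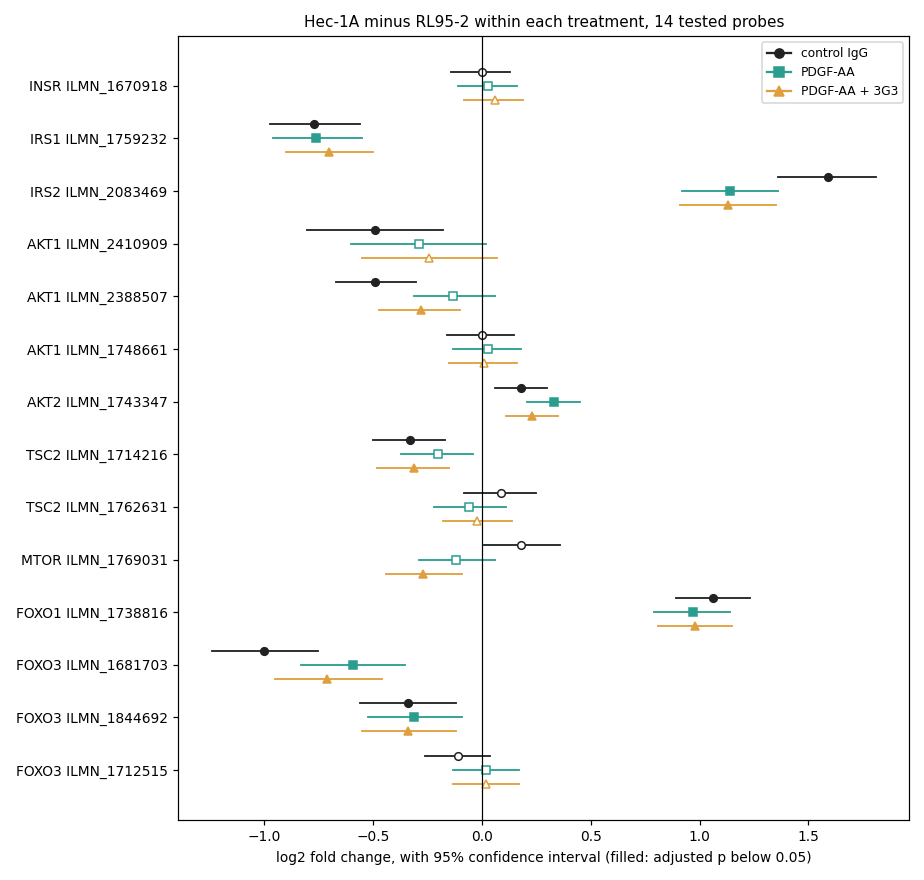
Log2 fold change of Hec-1A over RL95-2 for the 14 tested probes within control IgG, PDGF-AA and PDGF-AA + 3G3, with 95% confidence intervals and filled points at an adjusted p below 0.05. IRS2 (1.59, 1.14 and 1.13) and FOXO1 (1.06, 0.97 and 0.98) lie to the right in all 3 treatments, and IRS1 (-0.77, -0.76 and -0.70) and the leading FOXO3 probe (-1.0, -0.59 and -0.71) to the left.

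FOXO1 and FOXO3 are forkhead transcription factors that AKT phosphorylates and that switch on genes of cell cycle arrest, stress resistance and feedback to the insulin pathway. FOXO1 (ILMN_1738816; chromosome 13, 40555667 to 40666641) read 8.50, 8.52 and 8.60 in Hec-1A under control IgG, 8.25, 8.46 and 8.48 under PDGF-AA and 8.53, 8.35 and 8.27 under PDGF-AA + 3G3. In RL95-2 it read 7.50, 7.44 and 7.49, then 7.29, 7.56 and 7.45, then 7.47, 7.35 and 7.39. No value lay between 7.56 and 8.25. FOXO1 was 2.08-fold higher in Hec-1A under control IgG, at 1.06 ± 0.08 on the log2 scale (SE; limma, adjusted p = 1.9e-08), and at 1.08 without Hec-1A control IgG replicate 1 (adjusted p = 3.7e-08). Under PDGF-AA it was 1.95-fold higher (adjusted p = 6.7e-08) and under PDGF-AA + 3G3 1.97-fold higher (adjusted p = 5.7e-08).

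FOXO3 (chromosome 6, 108559825 to 108684774) had 4 probes, and the leading one, ILMN_1681703, read 8.85, 9.09 and 9.13 in Hec-1A under control IgG, 9.17, 9.26 and 9.17 under PDGF-AA and 9.20, 9.16 and 8.88 under PDGF-AA + 3G3. RL95-2 arrays read 10.15, 9.82 and 10.09, then 9.73, 9.84 and 9.81, then 10.03, 9.70 and 9.63. All RL95-2 values were above all Hec-1A values. FOXO3 was 2.0-fold lower in Hec-1A under control IgG, with a log2 difference of -1.0 ± 0.11 (SE; limma, adjusted p = 2.6e-06) and -0.91 without Hec-1A control IgG replicate 1 (adjusted p = 7.3e-06). It was -0.59 under PDGF-AA (adjusted p = 0.00065) and -0.71 under PDGF-AA + 3G3 (adjusted p = 0.00012).

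The second FOXO3 probe, ILMN_1844692, read 7.69, 7.77 and 7.70 in Hec-1A and 8.07, 7.91 and 8.20 in RL95-2 under control IgG. Under PDGF-AA it read 7.90, 7.70 and 7.70 against 8.03, 7.95 and 8.25, and under PDGF-AA + 3G3 7.61, 7.85 and 7.63 against 8.21, 8.02 and 7.87. It was on the same side as the leading probe and its differences were smaller, at -0.34 (adjusted p = 0.015), -0.31 (adjusted p = 0.033) and -0.34 (adjusted p = 0.019). The dim probe ILMN_1712515, with a mean of 6.61, had a control difference of -0.11 ± 0.07 (limma, adjusted p = 0.27).

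**Figure D3:**
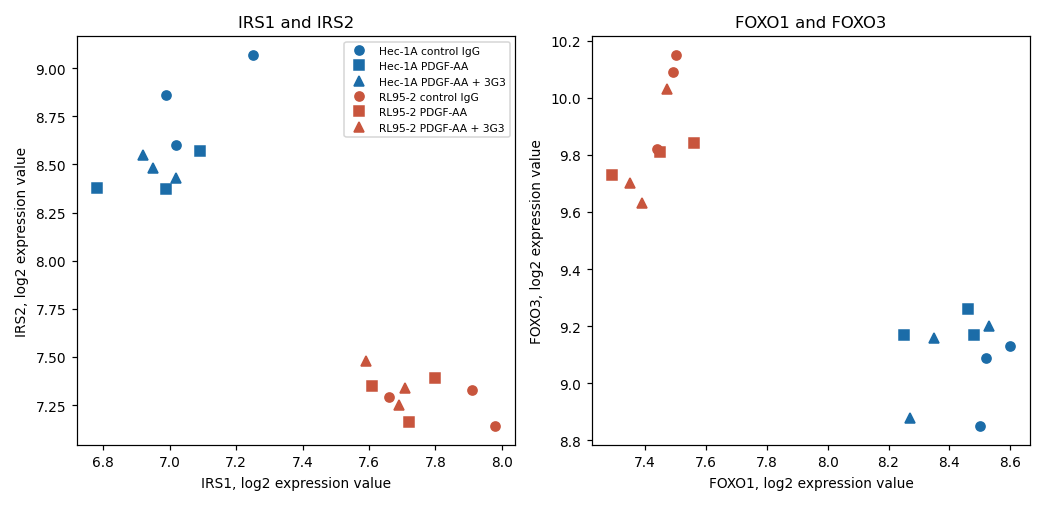
Log2 expression values of IRS2 against IRS1 and of FOXO3 against FOXO1, 1 point per array, coloured by line and shaped by treatment. In both panels the lines occupy opposite corners, with Hec-1A at or above 8.37 for IRS2 and at or below 7.25 for IRS1, and at or above 8.25 for FOXO1 and at or below 9.26 for FOXO3.

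Which transcripts respond to PDGF-AA and to 3G3 was asked within each line. No probe of the 9 genes passed the threshold in any of these comparisons, and few probes did in the whole table. For PDGF-AA against control IgG, 0 of the 14 probes were called in Hec-1A and in RL95-2, against 0% and 0.00624% of all tested probes. For PDGF-AA + 3G3 against PDGF-AA it was 0 and 0, against 0% and 0.00312%, and for PDGF-AA + 3G3 against control IgG 0 and 0, against 0.00312% and 0%. At an unadjusted p below 0.05, limma counted 3, 1, 0, 0, 2 and 1 of the 14 probes in that order, beside 6736, 1822, 1308, 1012, 6565 and 3017 of the 32070 probes. The comparisons against control IgG within a line share their control arrays.

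**Figure D4:**
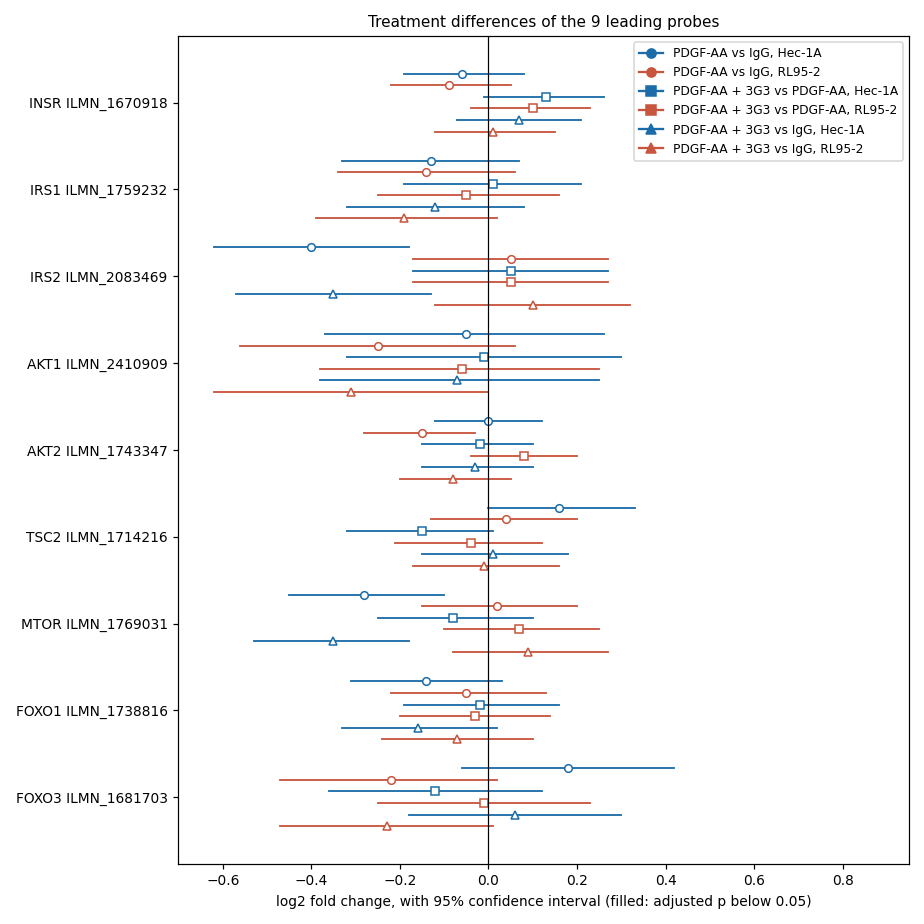
Log2 fold changes of the 9 leading probes between treatments, with 95% confidence intervals, Hec-1A in blue and RL95-2 in red; open points have an adjusted p of 0.05 or more. All points are open; against control IgG, IRS2 (-0.40 and -0.35) and MTOR (-0.28 and -0.35) in Hec-1A and AKT1 in RL95-2 (-0.25 and -0.31) lie farthest left.

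IRS2 and MTOR had the smallest p-values among the members in Hec-1A against control IgG. IRS2 differed by -0.40 ± 0.10 between PDGF-AA and control IgG (limma, adjusted p = 0.11) and by -0.35 between PDGF-AA + 3G3 and control IgG (adjusted p = 0.085). The groups did not overlap in either comparison, the lowest control being 8.60 and the highest treated array 8.57. Without Hec-1A control IgG replicate 1, whose value of 9.07 was 0.34 above the mean of the other control arrays, the differences were -0.29 (adjusted p = 0.39) and -0.24 (adjusted p = 0.39). Without Hec-1A control IgG replicate 2 they were -0.52 (adjusted p = 0.011) and -0.48 (adjusted p = 0.008), past the threshold. The result therefore turned on which control arrays were kept.

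MTOR differed by -0.28 ± 0.08 between PDGF-AA and control IgG in Hec-1A (limma, adjusted p = 0.12) and by -0.35 ± 0.08 between PDGF-AA + 3G3 and control IgG (adjusted p = 0.063). Its lowest control value was 8.96 and its highest treated value 8.94. Without Hec-1A control IgG replicate 1, also 0.34 above the mean of the other controls, the differences were -0.16 (adjusted p = 0.49) and -0.24 (adjusted p = 0.18). They were -0.36 (adjusted p = 0.017) and -0.44 (adjusted p = 0.0058) without Hec-1A control IgG replicate 2.

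In RL95-2 the same probes lay near 0. IRS2 differed by 0.05 between PDGF-AA and control IgG, with an interval from -0.17 to 0.27, and MTOR by 0.02, from -0.15 to 0.20. The smallest p in that comparison was that of AKT2, at -0.15 ± 0.06 (limma, adjusted p = 0.83). Its PDGF-AA arrays at 6.66 to 6.70 lay below the controls at 6.71 to 6.94. The 2 bright AKT1 probes differed in their treatment values. In Hec-1A, ILMN_2388507 gave 0.24 for PDGF-AA against control IgG (limma, adjusted p = 0.15), where the leading probe gave -0.05. In RL95-2 it gave -0.12 for PDGF-AA and -0.11 for PDGF-AA + 3G3 against control IgG, where the leading probe gave -0.25 and -0.31.

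Adding 3G3 to PDGF-AA moved no leading probe by more than 0.15 on the log2 scale in either line. The smallest p in both lines was that of INSR, at 0.13 in Hec-1A (interval -0.01 to 0.26) and 0.10 in RL95-2 (interval -0.04 to 0.23), on a probe near background. For IRS2 the 3G3 difference was 0.05 in each line, with intervals from -0.17 to 0.27. Changes within these intervals were not excluded. The intervals are not adjusted for the number of probes, so a change beyond them could also miss the threshold with 3 arrays a group.

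Whether the lines differed in their response was tested as an interaction. For PDGF-AA, 0 of the 14 probes and 0.00312% of all probes passed, and for 3G3 0 of the 14 and 0%. At an unadjusted p below 0.05 limma counted 4 and 0 member probes, beside 6385 and 889 of all probes. The 4 were IRS2 at -0.45 ± 0.15 (adjusted p = 0.15), the AKT1 probe ILMN_2388507 at 0.36 ± 0.12 (adjusted p = 0.15), MTOR at -0.30 ± 0.12 (adjusted p = 0.18) and FOXO3 at 0.40 ± 0.16 (adjusted p = 0.19). Each value is the Hec-1A change minus the RL95-2 change. For IRS2 the interaction passed the threshold without Hec-1A control IgG replicate 2 (-0.57, adjusted p = 0.03) and with array weights (-0.47, adjusted p = 0.022), and it was -0.34 without replicate 1 (adjusted p = 0.27). Over all alternatives its adjusted p ranged from 0.022 to 0.43. For MTOR it passed without replicate 2 only (-0.38, adjusted p = 0.047).

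Other genes of the pathway were read from 6 lists by role, with the brightest probe of each gene, 88 tested genes in all. Under control IgG 17 of the 88 were higher and 37 lower in Hec-1A, whereas 22.9% of all 15360 genes were higher and 23.1% lower. Under PDGF-AA 18 of the 88 were higher and 28 lower, against 18.8% and 18.1% of all genes, and under PDGF-AA + 3G3 18 were higher and 25 lower, against 19% and 18.6%. The median log2 difference over the 88 genes was -0.08 under control IgG, -0.06 under PDGF-AA and -0.03 under PDGF-AA + 3G3, and over all genes it was 0.0 under control IgG. The genes named below are described under control IgG. The list values without Hec-1A control IgG replicate 1 were an alternative chosen after seeing the data. Without it, 1 gene fewer was called lower in each of the lists of AKT kinases, mTOR complexes and FOXO targets, and 1 fewer higher among mTOR effectors. Without it, values of named genes were 2.40 for GRB14, -2.78 for IGF2R, 4.04 for RRAGA, -2.47 for DDIT4 and -4.37 for TXNIP. EIF4EBP2 fell from 0.47 to 0.32 (limma, adjusted p = 0.0074). ULK1 stood at -0.97, EIF4EBP1 at -0.50 and TBC1D4 at -0.56. PIK3CB, EIF4E, HIF1A and RPS6KB1 are given without it below.

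Among insulin and IGF receptors, ligands and adaptors 2 of 14 genes were higher and 6 lower in Hec-1A, with a median of -0.11. In each of the other treatments 2 were higher and 3 lower. GRB14, an adaptor that inhibits the insulin receptor, was 2.40 ± 0.08 higher on the log2 scale (limma, adjusted p = 7.7e-13), at 9.08 ± 0.12 (SD, n = 3) against 6.68 ± 0.04. Its 3 other probes gave differences from -0.02 to 0.39. IGF2R, which clears IGF2 from the cell surface, was lower by the log2 difference of -2.82 (7.61 ± 0.09 against 10.44 ± 0.13, adjusted p = 2.1e-12). PTPN1, a phosphatase that switches the insulin receptor off, stood at -0.48 (adjusted p = 0.00013). IGF1R stood at -0.27 (adjusted p = 0.00015), but its Hec-1A arrays were all at or below the array median, which makes it at least 1.1-fold lower when these arrays are set to the median.

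For phosphoinositide 3-kinase subunits and lipid phosphatases, 1 of 9 genes was higher and 3 lower in each treatment, with a median of 0.06 under control IgG. INPP4B and PHLPP1, phosphatases that act against the kinase and against AKT, were lower at -0.69 (adjusted p = 0.00029) and -0.42 (adjusted p = 0.00011), as was the regulatory subunit PIK3R3 at -0.31 (adjusted p = 0.022). The catalytic subunit PIK3CB was higher at 0.99 ± 0.27 (adjusted p = 0.0076), and at 0.62 without Hec-1A control IgG replicate 1 (adjusted p = 0.03). Its SD in the Hec-1A controls was 0.64, against 0.15 in RL95-2.

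In the list of AKT-related kinases, the activating kinase and substrates, 1 of 11 genes was higher and 5 lower, with a median of -0.22. The counts were 3 higher and 3 lower under PDGF-AA (median -0.07), and 3 higher and 4 lower under PDGF-AA + 3G3 (median 0.04). SGK3 and SGK1, kinases related to AKT, were lower at -1.06 (adjusted p = 1.4e-07) and -0.22 (adjusted p = 0.0097). TBC1D4, an AKT substrate in glucose transport, was lower at -0.44 (adjusted p = 0.0016). HSP90AA1, a chaperone of AKT, was higher at 0.18 by its brightest probe (adjusted p = 0.013), while its other probes ranged from -0.54 to 2.22, so that its direction is not settled.

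Of the TSC, RHEB and mTOR complexes with their inputs, 5 of 18 genes were higher and 9 lower, with a median of -0.22. Under PDGF-AA 7 were higher and 6 lower (median -0.01), and under PDGF-AA + 3G3 6 were higher and 5 lower (median -0.04). RRAGA, a Rag GTPase that reports amino acids to mTOR complex 1, was at 10.58 ± 0.02 in Hec-1A and at 6.53 ± 0.03 in RL95-2, where no control array exceeded its median. The Hec-1A level was at least 15.3-fold that of RL95-2 (limma, adjusted p = 1.3e-18), by its single probe. RRAGD was higher at 0.93 (adjusted p = 1.6e-08). DDIT4 and DEPTOR, both inhibitors of mTOR signalling, were lower at -2.73 (8.97 ± 0.44 against 11.70 ± 0.15, adjusted p = 1.6e-09) and -1.43 (adjusted p = 5e-11), and the second DEPTOR probe gave -1.36.

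Of 14 mTOR effectors 4 were higher and 3 lower, with a median of 0.05, compared with 1 and 3 under PDGF-AA and 1 and 2 under PDGF-AA + 3G3. ULK1, the kinase that starts autophagy, was lower at -1.20 (adjusted p = 2.1e-05), SREBF1, a regulator of lipid synthesis, at -0.71 (adjusted p = 8.8e-07) and EIF4EBP1, a repressor of translation, at -0.61 (adjusted p = 0.0014). EIF4EBP2, of the same family, was higher at 0.47 (adjusted p = 0.0022). EIF4E, HIF1A and RPS6KB1, named after their values were seen, depended on Hec-1A control IgG replicate 1, with 0.86, 0.82 and 0.79 with it and 0.48 (adjusted p = 0.21), 0.39 (adjusted p = 0.00096) and 0.39 (adjusted p = 0.0061) without it.

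Of 22 FOXO family and target genes 4 were higher and 11 lower in Hec-1A, with a median of -0.24, compared with 4 and 10 under PDGF-AA (median -0.25) and 5 and 8 under PDGF-AA + 3G3 (median -0.15). TXNIP, which binds thioredoxin and restrains glucose uptake, was at 6.52 ± 0.03 in Hec-1A, where no control array exceeded its median, and at 10.88 ± 0.25 in RL95-2. It was at least 18.9-fold lower in Hec-1A (limma, adjusted p = 4.5e-15), by its single probe. GADD45A, a stress response gene, and CDKN1B, an inhibitor of cell cycle kinases, were lower at -1.93 (adjusted p = 7.7e-09) and -1.06 (adjusted p = 2.4e-09), and their second probes gave -1.62 and -0.67. KLF6, a transcription factor, was higher at 1.89 (11.26 ± 0.17 against 9.37 ± 0.21, adjusted p = 2e-09).

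**Figure D5:**
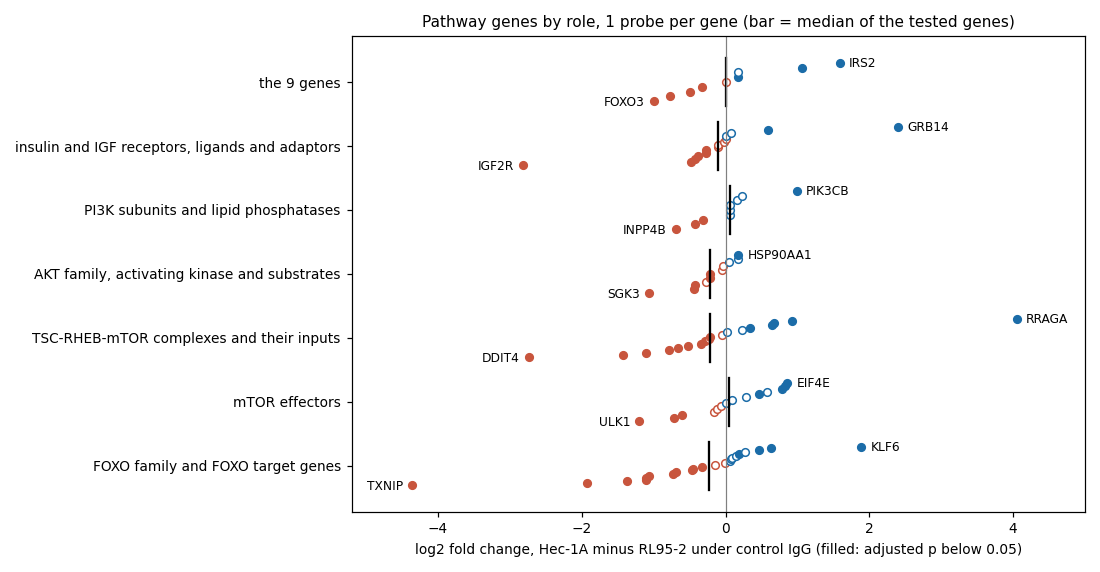
Log2 fold change of Hec-1A over RL95-2 under control IgG for the 9 genes and the 6 pathway lists, 1 point per tested gene, filled at an adjusted p below 0.05, blue above 0 and red below. Vertical bars are list medians, from -0.24 to 0.06, and RRAGA at 4.05 and TXNIP at -4.36 are the outermost points.

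The treatments moved none of these genes past the threshold, with 0 of 88 called in each of the 6 treatment comparisons and both interactions. At an unadjusted p below 0.05 limma counted 16 of them in Hec-1A and 11 in RL95-2 for PDGF-AA against control IgG, 3 and 7 for PDGF-AA + 3G3 against PDGF-AA, and 15 and 20 for PDGF-AA + 3G3 against control IgG. The gene of smallest p in each list is given for each comparison.

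In Hec-1A under PDGF-AA against control IgG these were RBL2, a pocket protein that restrains the cell cycle, at -0.46, INPPL1, a lipid phosphatase, at 0.36, and AKT1S1, an AKT substrate in mTOR complex 1, at 0.28 (adjusted p = 0.11 each). MLST8, an mTOR complex subunit, stood at 0.29 (adjusted p = 0.14), the translation factor EIF4B at -0.91 (adjusted p = 0.13) and PIK3CB at -0.55 (adjusted p = 0.25). With Hec-1A control IgG replicate 1 left out, PIK3CB was at -0.18, EIF4B at -0.66, RBL2 at -0.33, INPPL1 at 0.24, MLST8 at 0.19 and AKT1S1 at 0.27 (adjusted p from 0.34 for RBL2 to 0.84 for PIK3CB). Under PDGF-AA + 3G3 against control IgG, RBL2 stood at -0.44, with the smallest adjusted p of any list gene in a treatment comparison, 0.064, and at -0.31 without that array (adjusted p = 0.22). BAD, a death-promoting AKT substrate, stood at 0.51 (adjusted p = 0.071), PTPN1 at -0.29 (adjusted p = 0.074), PRKAA1, a subunit of the energy sensor AMPK, at -0.38 (adjusted p = 0.11), EIF4B at -0.75 (adjusted p = 0.18) and PIK3CB at -0.54 (adjusted p = 0.27). Leaving that array out gave 0.34 for BAD, -0.21 for PTPN1, -0.16 for PRKAA1, -0.50 for EIF4B and -0.17 for PIK3CB (adjusted p from 0.28 for BAD to 0.86 for PIK3CB). For PDGF-AA + 3G3 against PDGF-AA, FOXO6 at 0.20, AKT1S1 at -0.18, PIK3R3 at -0.15, PTPN1 and SREBF1 at -0.14 and TSC1 at -0.12 all had an adjusted p of 1.

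In RL95-2 TXNIP had the smallest p for PDGF-AA against control IgG, at 0.48 (limma, adjusted p = 0.42), followed by SREBF1 at -0.31 (adjusted p = 0.57) and STK11, the kinase that activates AMPK, at -0.22 (adjusted p = 0.76). TRIB3 at -0.26, INPPL1 at -0.25 and PHLPP1 at -0.16 had adjusted p-values of 0.86 to 0.88. Under PDGF-AA + 3G3 against control IgG, SREBF1 at -0.32 and FBXO32, a ubiquitin ligase subunit and FOXO target, at -0.45 came first (adjusted p = 0.38 each). MLST8 stood at -0.31 (adjusted p = 0.45), IGF1R at -0.12 (adjusted p = 0.47), AKT1S1 at -0.18 (adjusted p = 0.5) and PIK3CB at 0.39 (adjusted p = 0.65). For PDGF-AA + 3G3 against PDGF-AA, TXNIP at -0.37, GSK3B at -0.26, GRB14 at 0.22, RRAGC and EEF2K at -0.19 and PHLPP1 at 0.07 all had an adjusted p of 1.

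With the mean of each line removed, IRS2 and MTOR varied together over the 18 arrays with Pearson's r of 0.89, and 0.78 without Hec-1A control IgG replicate 1. This pair had the highest r among the leading probes, followed by IRS1 and AKT1 at 0.61. Treatment means were not removed, so the lower values of IRS2 and MTOR on treated Hec-1A arrays enter their r. FOXO1 and FOXO3 had an r of 0.37 and IRS1 and IRS2 of 0.30, the latter -0.09 without that array. The probes most like IRS2 on this measure were those of COG5 and RIGI (0.95 each), and for MTOR those of DNAJC15 (0.96) and DNM1L (0.95). For FOXO1 they were PLEKHA7 (0.77) and TCAF1 (0.76), and for FOXO3 ABHD12 (0.91) and RUSF1 (0.90). IRS1 was closest to PROSER2 (0.87) and TBC1D9 (0.83), AKT1 to INO80 (0.91) and SMARCC2 (0.90), AKT2 to SLC26A1 and NTSR1 (0.76 each), and TSC2 to SNAPC2 (0.84) and FBXO45 (0.82). INSR, near background, was closest to BRD10 (0.80) and ORMDL1 (0.75). These values were picked as the highest of the whole table, share arrays and normalization, and describe these 18 arrays.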

How the data were processed

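Biotin-labelled cRNA from total RNA of 18 samples was hybridised to Illumina bead arrays. The authors deposited 2 tables of 47231 probes. The first holds non-normalized signal intensity from 66.7 to 22228, and BeadStudio is named, with no version, per the submitters' processing notes. The second, deposited by the authors as processed values, was used here and holds log2 expression values that differed by at most 0.0438 from a quantile normalization of the log2 intensity. The 75th percentile of intensity per array ranged from 122.7 to 185.9. Precision is limited by the number of arrays. Of the probes 30113 carried 1 gene symbol in the platform annotation, 8 several and 17110 none. Gene coordinates and promoter sequences came from RefSeq on GRCh38.p14, and were not used to place the probes.

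Groups came from the cell line and treatment labels. Testing was limited to the 32070 probes (67.9%) that exceeded the array median on 3 or more arrays. The R package limma (3.58.1, under R 4.3.3) gave a model with a mean for each of the 6 groups (residual df 12, prior df 3.61) and 11 comparisons, with Benjamini-Hochberg adjustment over all tested probes and a threshold of 0.05. The model was tested on simulated data with independent normal noise. These held no array unlike the rest, so the test does not cover the influence of single Hec-1A control arrays. A group at or below the array median on all its arrays was raised to that median for a fold given as "at least". Alternatives to the scaling, background correction, filter, moderation and array weights, a replicate block, subsets and leaving out each array were computed. The members, lists and tests were chosen with earlier results of these data known. All member probes are given. Of each list, the 4 genes with the smallest p between the lines under control IgG were named, and for the treatments the called genes or the 1 of smallest p. Most alike probes were the 2 of highest Pearson's r per leading probe. Plots used matplotlib 3.10.9 (Python 3.11.15).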

Additional observations from a re-analysis of the deposited data

How the results depend on the processing

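Values of the 9 leading probes were recomputed 2930 times over 18 alternatives that leave out 1 array and 13 others, which covered the scaling, background correction, filter, moderation, array weights, subsets, a replicate block, 4 arrays left out together (which leaves RL95-2 PDGF-AA + 3G3 with 1 array, assumed to vary like the other groups) and the mean of a gene's probes. Of these 2891 kept direction and side of the threshold, 21 lost a call, 18 gained one and 0 reversed a called value. The line differences of IRS1, IRS2, FOXO1 and FOXO3 stayed called in all of them, and the calls lost were those of AKT1, AKT2, TSC2 and MTOR; the cause was not tested. Under control IgG the count of 9 member probes fell to 5 with no normalization between arrays, which moved the median of all probes to 0.11, and ranged from 7 to 9 when 1 array was left out. Under PDGF-AA that range was 5 to 7 and under PDGF-AA + 3G3 6 to 9. With 1 array left out, 9867 to 11522 of the 32070 tested probes were called under control IgG, where the full data gave 11412. It was 7939 to 10243 under PDGF-AA and 7987 to 10309 under PDGF-AA + 3G3. With no normalization 5778 and 5728 of all probes were called in these last 2 comparisons, against 8980 and 9174. In Hec-1A, array weights, which gave control IgG replicate 3 a weight of 6.73 and replicate 1 a weight of 0.2, raised the member count from 0 to 3 for PDGF-AA against control IgG and to 2 for PDGF-AA + 3G3 against control IgG, and for the interaction with PDGF-AA to 1. Leaving out 1 array gave 0 to 2 in each of these 3 comparisons, 2 being without Hec-1A control IgG replicate 2. The filter at the 75th percentile gave 1 for PDGF-AA + 3G3 against control IgG, that of MTOR (adjusted p = 0.043). Counts over all probes moved likewise, for PDGF-AA in Hec-1A from 0 to 4701 with weights and 3684 without control IgG replicate 2, for PDGF-AA + 3G3 against control IgG from 1 to 3755 and 3889, and to 928 with the stricter filter and 257 with an intensity trend, and for the interaction from 1 to 2646 and 2308. Samples of a line with the same replicate number had deviations from their group means correlated from -0.69 to 0.319. Samples with different numbers were not compared in this way, so whether the numbers pair the samples is not settled. With a replicate block 9, 5 and 9 member probes were called between the lines and 0 between treatments. Alternatives other than leaving out 1 array, the block and no normalization among them, called 8990 to 14741 of all probes under control IgG. Under PDGF-AA they called 5778 to 10575, and under PDGF-AA + 3G3 5728 or more. The number of probes tested differed between some of them. Without Hec-1A control IgG replicate 1, RHEB, BAD and CAT of the lists also lost their calls (adjusted p = 0.068, 0.13 and 0.058). For dim probes near the array median, INSR first among the leading probes, differences within their intervals were not excluded.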
